A study of Drosophila melanogaster with 6 samples.

Results

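The machinery that cuts and loads small silencing RNAs was followed through 10 core fly genes, AGO1, AGO2, Dcr-1, Dcr-2, r2d2, loqs, piwi, aub, AGO3 and armi, in the eye discs of Drosophila melanogaster larvae. The genes were taken by symbol from the gene column of the deposited tables, where each matched 1 locus, giving 10 of 15904 loci. Eye discs are the larval tissue that forms the adult eye, and they were dissected from wandering larvae late in the third instar. RNA was measured in 3 groups of 2 libraries. The RNAi group carried w1118, the sev-GAL4 driver, UAS-GFP and the hsromegaRNAi transgene, directed at Hsromega, a long non-coding RNA. The overexpression group carried w1118, sev-GAL4, UAS-GFP and EP3037, an insertion through which the driver is meant to raise Hsromega. The control group carried w1118, sev-GAL4 and UAS-GFP, so the driver and the GFP transgene were shared by every group. The sevenless promoter of the driver is active in only some retinal cells, whereas the RNA came from whole discs, 30 pairs per library. Each group has a single FPKM value per locus (fragments mapped, scaled to transcript length and to library size), pooled by the authors from its libraries, so a group has no replicate spread here and its depth is unknown. The labels do not say whether the libraries of 1 group were raised separately, so the spread between libraries that enters the p-values may be technical.

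Small RNA silencing in flies runs through 3 pathways that share a logic: a small RNA guides an Argonaute protein to a matching RNA. In the microRNA (miRNA) pathway Dcr-1, a Dicer nuclease, cuts hairpin precursors with the help of the double-stranded RNA-binding protein Loqs, and the product is loaded into AGO1. In the small interfering RNA (siRNA) pathway Dcr-2 cuts long double-stranded RNA, R2D2 helps load it, Loqs isoforms assist, and AGO2 slices the target; hairpin transgenes used for RNAi enter here. In the piRNA pathway, known mainly from the gonads, the PIWI-clade Argonautes Piwi, Aub and AGO3 and the RNA helicase Armi silence transposons without a Dicer.

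The targeted gene was not lower in the RNAi group, and it was higher in the overexpression group without being called. Hsromega stood at FPKM 204 in the RNAi group, 376 in the overexpression group and 202 in the control group, with q = 0.997 for RNAi and q = 0.758 for overexpression in the authors' deposited table. The groups below are therefore named as labelled. Between 9245 and 9529 loci reached FPKM of 1 in each group. Over the 9889 tested loci that reached it in either group compared, the median log2 fold was -0.04 for RNAi over control. For overexpression over control it was 0.03, over 9972 loci. In these bulk samples, fewer cells of a type and less RNA per cell cannot be told apart.

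The silencing genes formed an upper and a lower tier in every group. AGO1, AGO2, Dcr-2, r2d2, loqs and armi lay between FPKM 13.7 and 60.6 over all groups, Dcr-1 between 4.46 and 8.58, and the PIWI-clade genes aub, AGO3 and piwi between 0.475 and 3.66. FPKM is scaled to length, which lets genes be set beside each other within a group, but the folds between groups still moved with length over all loci so changes of place between groups are not free of it. With 1 pooled value per group no test between neighbouring genes in this order was possible. In RNAi discs the order from the highest was AGO2, Dcr-2, r2d2, AGO1, armi, loqs, Dcr-1, aub, AGO3 and piwi. In overexpression discs it was r2d2, Dcr-2, AGO2, AGO1, loqs, armi, Dcr-1, aub, AGO3 and piwi. In control discs it was AGO2, AGO1, Dcr-2, r2d2, loqs, armi, Dcr-1, aub, AGO3 and piwi. The lowest 4 places were held by the same genes in every group, and the changes of place lay among the 6 genes of the upper tier.

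**Figure D1:**
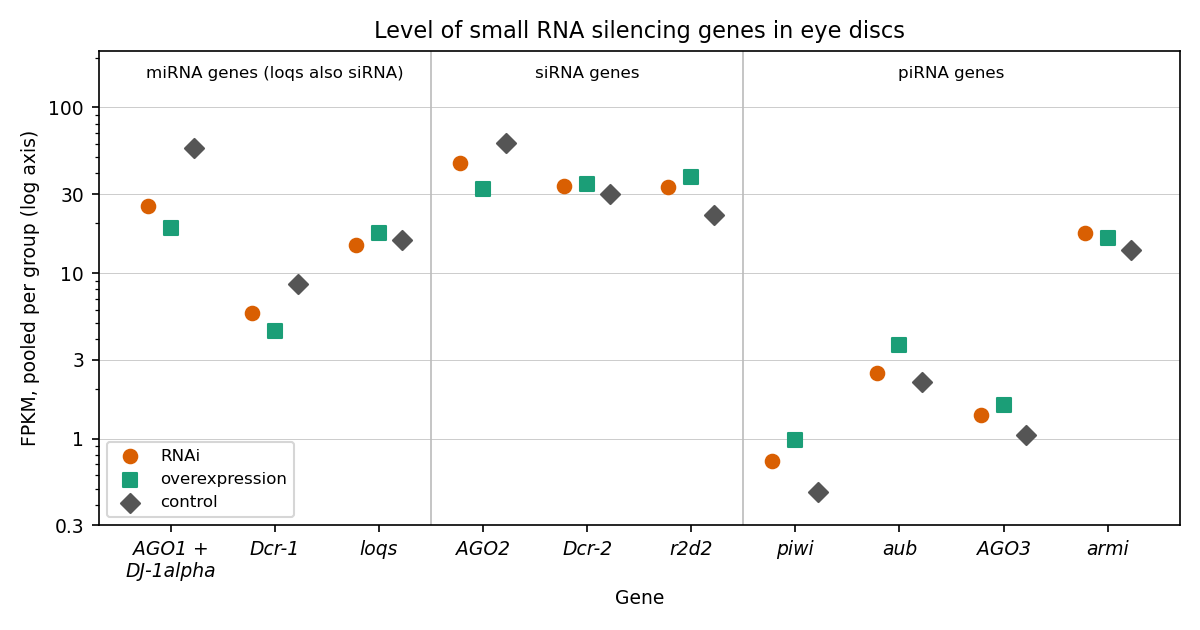
FPKM of each gene (horizontal axis) on a log axis, 1 point per pooled group, with RNAi as circles, overexpression as squares and control as diamonds. AGO1, Dcr-1 and AGO2 are highest in control, at 56.6, 8.58 and 60.6, whereas r2d2 and all piRNA genes shown are lowest in control.

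Among the miRNA genes, AGO1 had the largest difference between groups of all 10 silencing genes. The locus that holds AGO1, the miRNA effector Argonaute, stood at FPKM 25.3 in RNAi discs, 18.6 in overexpression discs and 56.6 in control discs. Both treated groups were below the control, by 2.24-fold for RNAi and 3.04-fold for overexpression. The log2 folds were -1.16 with an implied SE of 1.01 for RNAi and -1.60 with an implied SE of 0.99 for overexpression, where the implied SE is the fold divided by the deposited test statistic. Neither difference passed the threshold of 0.05 on q, the adjusted p of the Cuffdiff test, which was 0.568 for RNAi and 0.320 for overexpression in the authors' deposited table. Its unadjusted p of 0.0568 for overexpression was the smallest of any silencing gene in the authors' deposited table, and 6.75% of all tested loci had a p as small or smaller. AGO1 (chromosome 2R, 13943387 to 13958089, minus strand) is joined with its neighbour DJ-1alpha, a gene related to the Parkinson disease gene DJ-1, under 1 value, so the difference cannot be assigned to AGO1 alone. Of the AGO1 gene, 1470 bp also lie opposite CG33155 and mRpL53, whose joined locus stood at 49.1 in RNAi discs, 50.5 in overexpression discs and 49.9 in control discs.

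Dcr-1, the Dicer that makes miRNAs, stood at FPKM 5.76 in RNAi discs, 4.46 in overexpression discs and 8.58 in control discs. It too was lowest with overexpression and highest in the control. The log2 folds were -0.57 with an implied SE of 0.82 for RNAi and -0.94 with an implied SE of 0.79 for overexpression. Neither passed in the authors' deposited table, at q = 0.750 for RNAi and q = 0.411 for overexpression. Dcr-1 (chromosome 3R, 22734007 to 22741091, minus strand) has a single annotated transcript and no overlapping annotated gene, so its value is its own.

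The partner of both Dicers differed by less than its implied SE in both comparisons. Loqs, encoded by loqs (chromosome 2L, 13382652 to 13385671, plus strand), stood at FPKM 14.8 in RNAi discs, 17.6 in overexpression discs and 15.7 in control discs. Its log2 folds of -0.09 for RNAi and 0.16 for overexpression lay within their implied SE of 0.91 and 0.90, with q of 0.994 and 0.993 in the authors' deposited table. The annotation lists 6 transcripts of loqs, whose protein isoforms serve different Dicers, and the tables hold 1 value per locus, so a shift between isoforms was not measured.

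Beside loqs, AGO2 was below the control in both treated groups, and Dcr-2 and r2d2 were above it, all by less than their implied SE. AGO2, the slicing Argonaute of RNAi (chromosome 3L, 15554113 to 15561042, plus strand), stood at FPKM 46.1 in RNAi discs, 32.1 in overexpression discs and 60.6 in control discs. Its log2 folds were -0.40 with an implied SE of 1.07 for RNAi and -0.92 with an implied SE of 1.08 for overexpression, and q was 0.963 and 0.707 in the authors' deposited table. The error that the deposited p corresponds to was 0.84 for overexpression, smaller than the size of that fold. Dcr-2, the Dicer of long double-stranded RNA (chromosome 2R, 17574979 to 17581525, minus strand), stood at FPKM 33.7 in RNAi discs, 34.3 in overexpression discs and 30.2 in control discs. It had the smallest ratio of highest to lowest group among the silencing genes, 1.14, against 1.19 for loqs, 1.28 for armi and 3.04 for AGO1.

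The gene r2d2, whose product holds siRNA duplexes for loading (chromosome 2L, 7800147 to 7802098, plus strand), stood at FPKM 33.0 in RNAi discs, 38.1 in overexpression discs and 22.3 in control discs. Both treated groups were above the control, at log2 folds of 0.56 with an implied SE of 1.41 for RNAi and 0.77 with an implied SE of 1.37 for overexpression. Neither was called in the authors' deposited table, at q = 0.965 for RNAi and q = 0.892 for overexpression.

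The ratios between pathway counterparts were lowest in the control, in the pooled values and before transcript length is considered. The FPKM ratio of AGO2 to the AGO1 locus was 1.82 in RNAi discs, 1.72 in overexpression discs and 1.07 in control discs. The ratio of Dcr-2 to Dcr-1 was 5.85 in RNAi discs, 7.70 in overexpression discs and 3.52 in control discs, and that of r2d2 to loqs was 2.22 in RNAi discs, 2.17 in overexpression discs and 1.42 in control discs. In each of these pairs the siRNA gene stood higher than its miRNA counterpart or shared partner in every group. After subtraction of the trend of folds with transcript length, an alternative chosen after seeing the data, the log2 ratio of AGO2 to AGO1, treated minus control, was 0.18 for RNAi, against 0.77 without it, and -0.0077 for overexpression, against 0.68. That of Dcr-2 to Dcr-1 was 0.55 for RNAi, against 0.72, and 0.97 for overexpression, against 1.11, and that of r2d2 to loqs was 0.63 for RNAi and 0.56 for overexpression. The 2 Dicer genes summed to nearly the same level, 39.5 in RNAi discs, 38.8 in overexpression discs and 38.8 in control discs, whereas AGO1 and AGO2 summed to 71.3 in RNAi discs, 50.8 in overexpression discs and 117 in control discs. These ratios were not tested, and each difference was smaller than the joint implied SE of its pair, 1.23 or more. The error that the deposited p corresponds to was smaller for each of these genes. Under overexpression it was 0.68 for Dcr-2 and 0.55 for Dcr-1, and no joint error was computed from it.

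The 4 piRNA genes of the set were higher in both treated groups than in the control, and none passed the test. That test called 0.822% of all tested loci for RNAi and 1.2% for overexpression in the authors' deposited table. Of all tested loci that reached FPKM of 1, 47.1% were higher for RNAi and 51.8% for overexpression. The gene piwi, which encodes the nuclear Argonaute of the pathway (chromosome 2L, 10982205 to 10987420, minus strand), stood at FPKM 0.732 in RNAi discs, 0.981 in overexpression discs and 0.475 in control discs. It did not reach FPKM of 1 in any group, and its implied SE of 3.50 for RNAi and 3.24 for overexpression was the widest of all silencing genes. Its neighbour aub, which encodes a cytoplasmic slicing Argonaute of the germline (chromosome 2L, 10997819 to 11001476, minus strand), stood at FPKM 2.49 in RNAi discs, 3.66 in overexpression discs and 2.20 in control discs. AGO3, the partner of Aub in the amplification of piRNAs (chromosome 3L, 23554593 to 23689640, plus strand), stood at FPKM 1.39 in RNAi discs, 1.59 in overexpression discs and 1.05 in control discs. The smallest q of these 3 genes in the authors' deposited table was 0.841, for AGO3 under overexpression.

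The helicase gene armi (chromosome 3L, 3461317 to 3466314, plus strand) was far more abundant than the PIWI-clade genes it serves. It stood at FPKM 17.5 in RNAi discs, 16.3 in overexpression discs and 13.7 in control discs. Its level was 7.05 times that of aub in RNAi discs, 4.44 times in overexpression discs and 6.24 times in control discs. The log2 folds of armi were 0.35 with an implied SE of 0.77 for RNAi and 0.25 with an implied SE of 0.77 for overexpression, not called at q = 0.912 and q = 0.970 in the authors' deposited table. The summed FPKM of piwi, aub and AGO3 was 4.60 in RNAi discs, 6.23 in overexpression discs and 3.72 in control discs. Their share of the summed FPKM of the 5 Argonaute genes was 6.06% in RNAi discs, 10.9% in overexpression discs and 3.08% in control discs. The rest of that sum is AGO2 and the AGO1 locus, joined with DJ-1alpha, and their lower values in both treated groups raise the share. No length trend was subtracted from it.

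Counted over the whole set, 0 of 10 silencing genes were called for RNAi over control, where the authors' deposited table called 0.822% of 11314 tested loci at q of 0.05 or less. For overexpression over control 0 of 10 were called, against 1.2% of 11372 loci. Shares this low leave a count of 0 among 10 genes uninformative about the list. At an unadjusted p of 0.05 or less the count was also 0 in both comparisons of the authors' deposited table, against 4.5% of tested loci for RNAi and 6.16% for overexpression. With Benjamini-Hochberg adjustment of the deposited p over all tested loci it was 0, against 0.124% of loci for RNAi and 0.0% for overexpression. When p came from the deposited statistic and was adjusted likewise it was 0, against 0.143% of loci for RNAi and 0.0978% for overexpression, and after subtraction of the length trend of all loci it was 0, against 0.544% for RNAi and 0.496% for overexpression. For RNAi 6 silencing genes were higher and 4 lower, and the median log2 fold of the 9 with FPKM of 1 or more was 0.16. For overexpression 7 were higher and 3 lower, and the median of the same 9 was 0.18. Both comparisons use the same control values, so a like direction in both is not independent evidence. Over all expressed loci the medians were -0.04 for RNAi and 0.03 for overexpression, as given above.

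The tests left room for sizeable changes. Every one of the 10 genes had a 95% interval of its log2 fold that reached past a 2-fold difference in at least 1 direction, in both comparisons. The tightest were those of armi, at -1.15 to 1.86 for RNAi and -1.27 to 1.76 for overexpression. For Dcr-2 the interval was -1.67 to 1.99 for RNAi and -1.67 to 2.04 for overexpression, so its near-equal FPKM in all groups does not show that its level was unchanged. The error that the deposited p corresponds to was 0.65 for Dcr-2 under RNAi, against an implied SE of 0.93. It was smaller than the implied SE for every gene under RNAi and, except for piwi and aub, under overexpression, and with it too every interval reached past 2-fold.

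**Figure D2:**
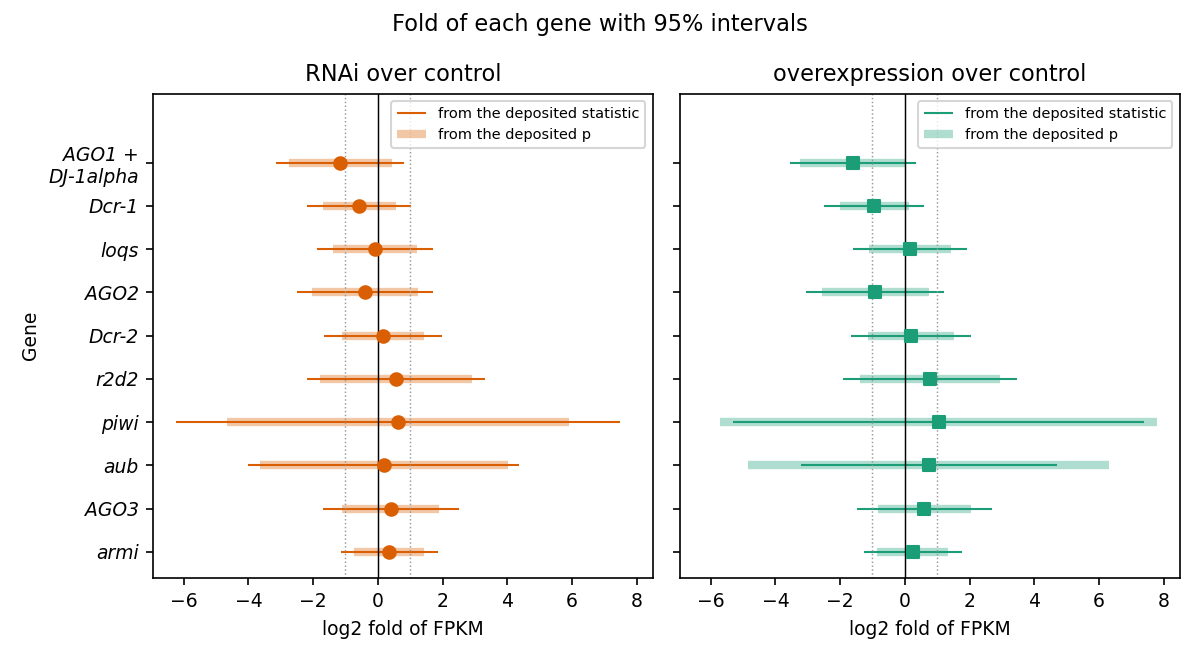
Log2 fold of FPKM (horizontal axis) of each gene (rows) for RNAi over control on the left and overexpression over control on the right. Thin lines are 95% intervals from the implied SE, thick bands those from the deposited p, and dotted lines mark a 2-fold difference; the thin line of every gene crosses 0, and that of piwi for RNAi runs from -6.24 to 7.49.

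Transcript length moved with these folds. Over all expressed loci the median log2 fold for RNAi over control was 0.26 for longest transcripts under 1000 nt and -0.94 for those of 6000 nt or more, and for overexpression over control 0.44 and -1.13. AGO1, with a longest transcript of 7888 nt, and Dcr-1, with 6913 nt, are the longest of the silencing genes. At their lengths the running median of all loci was -0.99 and -0.87 for RNAi and -1.19 and -1.01 for overexpression. On the log2 scale and relative to that median, AGO1 lay at -0.18 for RNAi and -0.41 for overexpression, and Dcr-1 at 0.30 for RNAi and 0.071 for overexpression. AGO2 (4117 nt) lay 0.0070 above that median for RNAi and, at -0.42, below it for overexpression. All 3 lay within the interquartile range of loci of their length in both comparisons, and none lay below it. The part of length in their folds was not tested beyond this subtraction.

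For RNAi, Dcr-2 stood furthest from loci of its own length, and for overexpression only piwi stood further. Its longest transcript has 5684 nt, a length at which the running median was -0.69 for RNAi and -0.86 for overexpression. Its level differed little from the control, so its log2 fold lay 0.85 above that median for RNAi and 1.04 above it for overexpression. After the length trend was subtracted the rescaled p of Dcr-2 was 0.194 for RNAi and 0.124 for overexpression, neither past the threshold. For armi (4151 nt) the distance was 0.77 for RNAi and 0.74 for overexpression. For piwi, under FPKM of 1 throughout, it was 0.80 for RNAi and 1.29 for overexpression, under an implied SE above 3 in both. These distances set a fold without pseudocount against a running median of FPKM + 0.1, which enlarges that of piwi. With 0.1 added, the log2 folds of piwi were 0.53 for RNAi and 0.91 for overexpression, against running medians of -0.18 and -0.24. In all, 5 silencing genes lay above the interquartile range for RNAi (Dcr-2, r2d2, piwi, AGO3 and armi), and these with aub made 6 for overexpression. By definition the upper quartile of expressed loci of like length lies above that range, and piwi is not among those expressed loci. The genes were chosen with earlier results known, and these counts were not tested.

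**Figure D3:**
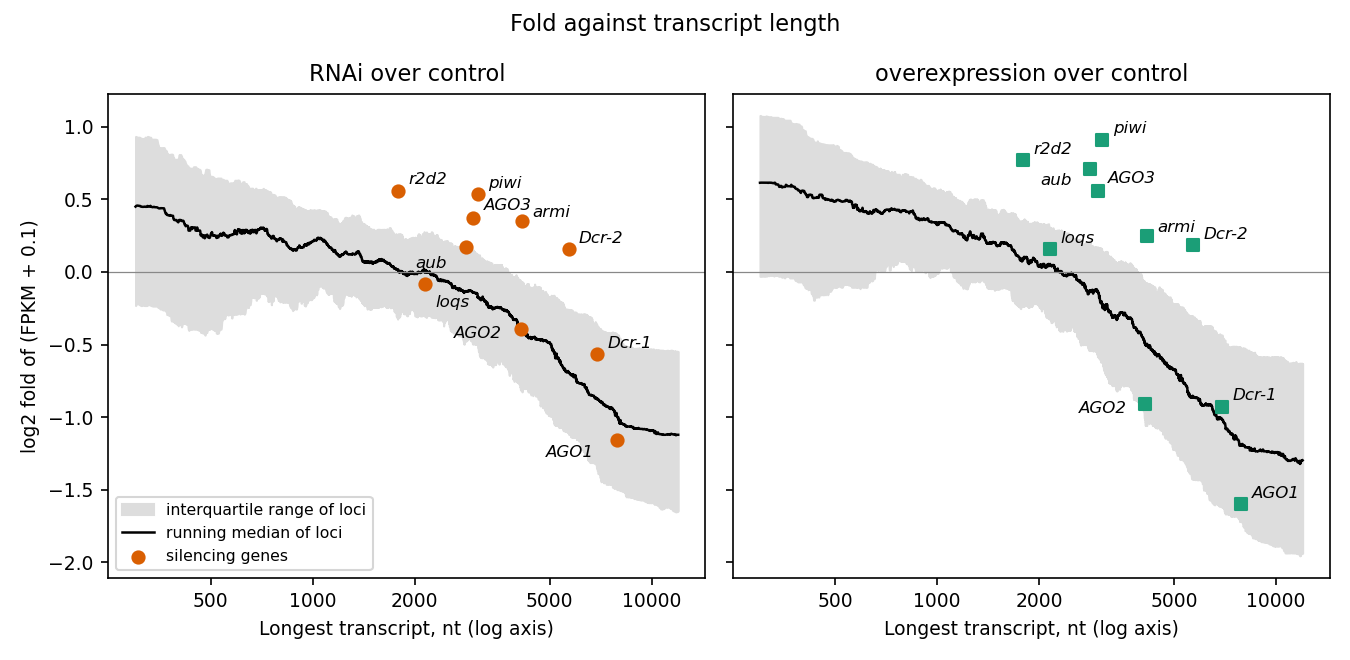
Log2 fold of FPKM + 0.1 against the longest annotated transcript (log axis), for RNAi over control on the left and overexpression over control on the right. The line is the running median of expressed loci and the grey band their interquartile range; Dcr-2 lies above the band in both panels, while AGO1 and Dcr-1 lie within it.

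Most further miRNA pathway genes were below the control, none of them called. Without the silencing genes above, 11 genes of miRNA processing and repression were tested. At the shares of all loci called, 0.822% for RNAi and 1.2% for overexpression, a count of 0 in this list and in those that follow is uninformative. For RNAi 2 of the 10 expressed were higher and 8 lower, with a median log2 fold of -0.52, and for overexpression 2 were higher and 8 lower, with a median of -0.76. After the length trend was subtracted these medians were -0.21 and -0.11, and the list's median longest transcript was 4611 nt against 1834 nt over all expressed loci. Not1, the scaffold of the deadenylase complex recruited by miRNA effectors, stood at FPKM 23.0 in RNAi discs, 24.6 in overexpression discs and 57.1 in control discs. Ranbp21, the fly Exportin-5 homologue that carries miRNA precursors out of the nucleus, stood at 7.58 in RNAi discs, 5.72 in overexpression discs and 15.1 in control discs, with q = 0.492 and q = 0.225 in the authors' deposited table. On the other side me31B, a helicase of mRNA decay bodies, stood at 219 in RNAi discs, 227 in overexpression discs and 136 in control discs. The poly(A)-binding protein gene pAbp stood at 443 in RNAi discs, 373 in overexpression discs and 645 in control discs. The AGO1 partner gene gw, which encodes the GW182 protein, differed least among the named genes of this list, at 61.0 in RNAi discs, 61.8 in overexpression discs and 67.5 in control discs.

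Most further siRNA genes were below the control too, again with no call among 10 tested. For RNAi 3 were higher and 7 lower, with a median log2 fold of -0.27, and for overexpression 2 of 9 expressed were higher and 7 lower, with a median of -0.50. With the length trend taken out, the medians were -0.18 for RNAi and -0.46 for overexpression. Fmr1, whose product binds the AGO2 complex, stood at FPKM 20.8 in RNAi discs, 14.5 in overexpression discs and 53.2 in control discs, with q = 0.329 and q = 0.105 in the authors' deposited table. Rm62, an RNA helicase of that complex, stood at 127 in RNAi discs, 98.2 in overexpression discs and 272 in control discs. The chaperones that help load Argonautes differed in direction: Hsc70-4 stood at 1402 in RNAi discs, 1298 in overexpression discs and 2171 in control discs, and Hsp83 at 987 in RNAi discs, 959 in overexpression discs and 694 in control discs. The double-stranded RNA-binding protein gene blanks, named after its values were seen, had the smallest q of this list in the authors' deposited table, 0.0746 for RNAi, at FPKM 3.71 in RNAi discs, 0.428 in overexpression discs and 0.806 in control discs.

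The further piRNA effector genes lay on both sides of the control. Of 22 further effector and processing genes 17 were tested and none was called. For RNAi 9 of 16 expressed were higher and 7 lower, with a median log2 fold of 0.034, and for overexpression 10 were higher and 6 lower, with a median of 0.072. With the length trend taken out, the medians were 0.20 for RNAi and 0.31 for overexpression. Hen1, which methylates the ends of piRNAs and siRNAs, had the largest fold among those named, at FPKM 6.85 in RNAi discs, 9.07 in overexpression discs and 3.98 in control discs, with an implied SE of 3.04 and 2.80. The Tudor-domain gene vret stood at 7.61 in RNAi discs, 7.12 in overexpression discs and 5.47 in control discs, and the exonuclease gene Nbr at 21.8 in RNAi discs, 26.5 in overexpression discs and 18.9 in control discs. The genes tud and vls, known from the germ plasm and arginine methylation, stood at 41.6 and 26.4 in RNAi discs, 36.9 and 27.3 in overexpression discs, and 41.4 and 25.1 in control discs. The squ locus is joined with grp, the Chk1 kinase gene, at 106 in RNAi discs, 107 in overexpression discs and 108 in control discs, so it gives no value for squ.

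Genes of piRNA clusters and nuclear silencing also held no call, among 18 tested for RNAi and 17 for overexpression. Their medians were 0.039 for RNAi and 0.025 for overexpression, and after the length trend was subtracted 0.053 for RNAi and -0.023 for overexpression. The gene of the heterochromatin protein HP1a stood at FPKM 288 in RNAi discs, 324 in overexpression discs and 216 in control discs. The helicase gene Hel25E stood at 164 in RNAi discs, 172 in overexpression discs and 148 in control discs, and the dynein light chain gene ctp at 260 in RNAi discs, 248 in overexpression discs and 235 in control discs. The cofactor gene wde of the H3K9 methyltransferase stood at 9.43 in RNAi discs, 7.96 in overexpression discs and 15.4 in control discs, and the methyltransferase gene egg, joined with Lcp9, at 13.2 in RNAi discs, 12.5 in overexpression discs and 19.8 in control discs.

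**Figure D4:**
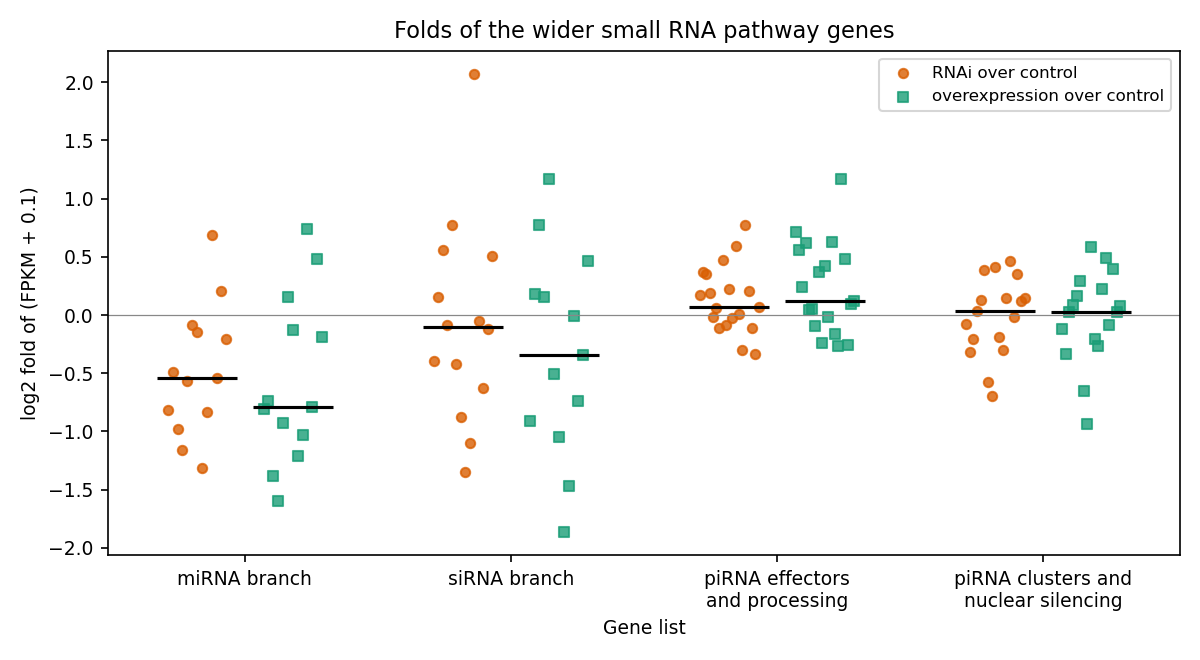
Log2 fold of FPKM + 0.1 for each expressed gene of 4 lists (horizontal axis), RNAi over control as circles and overexpression over control as squares; black bars are list medians and the 10 silencing genes are included. The bars of the miRNA list are the lowest, at -0.54 for RNAi and -0.79 for overexpression, and those of both piRNA lists lie near 0.

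Because the PIWI-clade genes are known from gonads, germline markers were read beside them. They did not share 1 pattern. The germline genes vas, nos, osk, zpg and otu were under FPKM of 1 in every group, with vas at 0.295 in RNAi discs, 0.370 in overexpression discs and 0.389 in control discs. None of these was listed at 0, and osk stood at 0.431 in RNAi discs, 0.0418 in overexpression discs and 0.0728 in control discs. Other germline genes, named after their values were seen, were above FPKM of 1 throughout. The differentiation gene bam stood at 3.08 in RNAi discs, 3.82 in overexpression discs and 3.25 in control discs. The germ cell gene pgc stood at 2.74 in RNAi discs, 3.68 in overexpression discs and 4.85 in control discs, and grk, an oocyte ligand gene, at 7.33 in RNAi discs, 7.37 in overexpression discs and 7.43 in control discs. Over the whole list of 17 loci, 7 were under FPKM of 1 in RNAi discs, 6 in overexpression discs and 6 in control discs. The summed FPKM was 72.9 in RNAi discs, 73.4 in overexpression discs and 133 in control discs, and its largest control values were those of ovo (29.5), fus (22.7), stau (21.9) and Rbfox1 (16.8), genes known from somatic tissues too. The part of germline cells in the values of piwi, aub and AGO3 was not tested. The gonad somatic marker tj was at 0.0626 in RNAi discs, 0.0453 in overexpression discs and 0.0850 in control discs. Of the 7 loci in the gonad somatic list, 2 were under FPKM of 1 in RNAi discs, 3 in overexpression discs and 2 in control discs. Most others were well above it, with Fas3 at 191, eya at 71.2 and hh at 18.3 in control discs. The gene eya is in the eye disc list too, so this list does not single out gonad cells. All 12 eye disc markers, among them ey, so and gl, were at FPKM of 3.97 or more in every group. Against control discs, 12 were lower in RNAi discs and 11 in overexpression discs. Their median log2 fold was -0.73 for RNAi and -0.92 for overexpression, and -0.40 and -0.71 after the length trend was subtracted. By the deposited q 1 was called, gl, at 7.74 in overexpression discs against 32.0 in control discs. This call did not hold with Benjamini-Hochberg adjustment over all tested loci, which called 0 loci for overexpression.

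Markers of tissues that can be carried along with discs also differed between groups. Salivary gland markers summed to FPKM 3295 in RNAi discs, 83.4 in overexpression discs and 51.7 in control discs, and fat body markers to 169 in RNAi discs, 87.3 in overexpression discs and 39.6 in control discs. Of 6 tested in each of these lists, all 6 were higher in RNAi discs than in control discs. By the deposited q, 4 in each were called, against 0.822% of all tested loci for RNAi. In overexpression discs 3 salivary gland markers and 6 fat body markers were higher, and 0 were called, against 1.2% of all tested loci. Haemocyte markers summed to 21.8 in RNAi discs, 21.0 in overexpression discs and 19.9 in control discs, and glia markers to 119 in RNAi discs, 122 in overexpression discs and 120 in control discs. Brain neuron markers summed to 8.18 in RNAi discs, 44.8 in overexpression discs and 23.2 in control discs, and muscle markers to 1275 in RNAi discs, 2338 in overexpression discs and 2016 in control discs. The brain neuron sum for overexpression rests on nwk, joined with mir-4940, at 0.426 in RNAi discs, 38.6 in overexpression discs and 10.1 in control discs. Without nwk, a split chosen after seeing the data, the sum was 7.75 in RNAi discs, 6.22 in overexpression discs and 13.1 in control discs. Among the brain neuron markers other than nwk, 5 of 6 were lower in RNAi discs and 6 in overexpression discs than in control discs. By the deposited q, brp and nwk were called lower in RNAi discs and brp in overexpression discs. Benjamini-Hochberg adjustment over all tested loci called 0.124% of loci for RNAi and 0 loci for overexpression. For RNAi it no longer called the fat body markers Lsp2, Fbp2 and Lsp1gamma, nor brp. The part of these tissues in the values of the silencing genes was not tested.

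Several silencing genes overlap a neighbour on the other strand, and the sources used here do not say whether the strand of a fragment was used when it was assigned. The gene piwi shares 191 bp with SCAR, an actin regulator at FPKM 13.2 in RNAi discs, 10.4 in overexpression discs and 19.6 in control discs, far above piwi itself and in the other direction. The gene aub shares 79 bp with TTLL4A, at 12.1 in RNAi discs, 12.6 in overexpression discs and 12.0 in control discs. AGO2 shares 317 bp with CG7739, which stood at 35.5 in RNAi discs, 47.2 in overexpression discs and 26.6 in control discs, and r2d2 shares 431 bp with Cdc14, at 9.04 in RNAi discs, 8.67 in overexpression discs and 12.0 in control discs. The loqs gene shares 582 bp with the antisense RNA CR44599, at 13.4 in RNAi discs, 14.2 in overexpression discs and 14.2 in control discs, and armi lies over its whole 4998 bp within CG46463, annotated on the same strand. The levels of these pairs are uncertain to the extent that their fragments could be exchanged.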

How the data were processed

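Libraries came from 30 pairs of eye discs each and were made from total RNA after ribosomal depletion with a stranded kit, then read as 50 bp pairs, per the labels' protocols. Cuffdiff 2.1.1, Cufflinks, Bowtie, TopHat and dm6 are listed as tools and build, per the submitters' processing notes; annotation and settings: not given in the sources used here. The authors' deposited tables hold 1 pooled FPKM value per group. The test statistic, a score, and its p-value and q-value were deposited too and come from Cuffdiff. Control FPKM values were identical in both tables.

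Folds were computed as treated over control from the deposited FPKM, without a pseudocount for single genes. List medians used log2(FPKM + 0.1) over loci that reached FPKM of 1 in either group compared. That scale understates the change of low genes. Intervals are the fold ± 1.96 implied SE. The limma fit planned for values per library was not run, since the tables hold none. Coordinates and transcript lengths come from Ensembl 115 on dm6, which matched 98.4% of loci. A running median of the folds of FPKM + 0.1 over 250 loci on each side in length order gave the length trend. For single genes it was subtracted from folds without a pseudocount. To test folds without it, each deposited p was rescaled and called at 0.00395, the largest p the authors called. The running median and the Benjamini-Hochberg adjustment were tested on simulated folds with a fixed, known error. The error taken from the deposited p and the cut at 0.00395 were not part of that test. The 10 genes and all gene lists were chosen with earlier results of these data known. From each pathway list the text names called genes, the 3 with the highest control FPKM and, per comparison, the 2 with the largest fold among those that reached FPKM of 5. Genes named outside this rule are marked as such. Python 3.11.15, pandas 2.3.3 and scipy 1.17.1 were used.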

Additional observations from a re-analysis of the deposited data

How the results depend on the processing

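The count of called silencing genes was 0 of 10 in both comparisons under all 4 alternatives run: Benjamini-Hochberg over all tested loci, an unadjusted p of 0.05, p from the test statistic, and subtraction of the length trend. With so few expected calls this says little about stability. The median log2 fold over the genes was 0.16 for RNAi and 0.18 for overexpression. It moved by more than 0.1 in 3 cases: with FPKM of 5 or more it was -0.086 for RNAi, and after the length trend was subtracted it was 0.31 for RNAi and 0.68 for overexpression. The first keeps fewer genes, leaving out aub and AGO3. Other pseudocounts, no filter, recentring and leaving out the joined locus moved neither median by 0.1 or more. Subtracting the length trend turned the sign of AGO2 and Dcr-1 for RNAi and of Dcr-1 for overexpression, none of them called; recentring turned none. The same subtraction, chosen for the ratios after seeing the data, took the AGO2 to AGO1 log2 ratio for overexpression over control to -0.0077, against 0.68 as deposited. No paired analysis was possible because the tables hold 1 pooled value per group, and for the same reason no library could be left out. What depth limits cannot be stated, since the tables give none; among the silencing genes the implied SE was widest for piwi and aub.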

Other observations

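Of the listed transcripts that feed the silencing machinery, 10 matched a locus, and bantam and the flamenco piRNA cluster, among others, were not analysed here. The loci are precursor or host annotations, some of them only as long as a hairpin, and mature small RNAs were not measured. The locus that joins mir-184 with CG17048 and CR44206 was called higher in the overexpression group, at FPKM 28.1 against 0.601 in the control group. Its log2 fold was 5.55 with an implied SE of 2.39, and q was 0.00144 in the authors' deposited table. This call did not hold with Benjamini-Hochberg adjustment of the deposited p over all tested loci, which called 0 loci for overexpression. The locus stood at 0.564 in RNAi discs. The value belongs to 3 joined genes and does not single out the miRNA. The locus of let-7, let-7-C, mir-100 and mir-125 stood at 174 in RNAi discs, 79.6 in overexpression discs and 35.3 in control discs, with an implied SE above 10, and was not called. FPKM divides by length, so few fragments give a high value on a hairpin-sized locus. The loci mir-9a (78 nt) and mir-34 (99 nt) were listed at 0 in RNAi and overexpression discs, against FPKM 466 and 19.3 in control discs. The locus mir-7 (88 nt), named after its values were seen, was at 87.7 in RNAi discs and listed at 0 in overexpression and control discs. None of these was called in the authors' deposited table.

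Hairpin RNAs, known as substrates of Dcr-2, held no call. The hairpin hpRNA:CR33940, listed in the tables as pncr009:3L, stood at FPKM 2.92 in RNAi discs, 3.66 in overexpression discs and 15.0 in control discs, with q = 0.238 and q = 0.462 in the authors' deposited table. The hairpin hpRNA:CR32207, named after its values were seen, stood at 1.22 in RNAi discs, 18.8 in overexpression discs and 5.92 in control discs, with q = 0.296 and q = 0.0842 in the authors' deposited table.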
